A study of Mus musculus with 12 samples.

Results

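The kidney of the lupus-prone mouse strain MRL/lpr was compared with that of the control strain C57BL/6 at 8 weeks of age, from 3 RNA libraries of each strain, 6 of the 12 in the series. The other 6 libraries came from the same strains at 17 weeks. Libraries were assigned by the strain and age of their labels. A gene was tested where its FPKM (fragments scaled to mRNA length and library size, summed over the deposited mRNAs of a gene) reached 1 in at least 3 of the 6 libraries, which 12342 of 19034 genes did. The labels give the genotype as MRL/lpr or C57BL/6 and the tissue as kidney, and name no further allele, treatment, sex or substrain. No label states that replicates are different mice, so each p-value measures only the spread between these libraries, which may be technical. No MRL mouse without lpr was sequenced, so effects of lpr, of early disease and of the rest of the strain background cannot be told apart.

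In MRL/lpr mice the lpr allele, a mobile element inserted in an intron of Fas, cuts the supply of the death receptor that ends the life of spent lymphocytes, and double-negative T cells and autoantibodies build up. Immune complexes then lodge in the glomerulus, complement is activated, and leukocytes enter the kidney. Young MRL/lpr kidneys are usually taken as the stage before overt nephritis.

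The 6 libraries added up to between 511275 and 528182 FPKM each, with 12079 to 12382 genes at 1 FPKM or more. No read counts were used, so the depth behind a value is unknown. Defining kidney genes were abundant in every library: the proximal tubule gene Kap lay between 13965 and 22502 FPKM, and the thick limb gene Umod, which encodes uromodulin, stood at 2134, 2238 and 2700.2 FPKM in C57BL/6 and 2396, 1883 and 2189.5 in MRL/lpr. Umod was not called different between the strains (adjusted p = 0.481). The first principal component of the tested genes held 74.8% of the variance and separated the strains, and the second held 11.6%. On that second component MRL/lpr replicate 3 lay at -17.9, against 14.3 and 4.46 for the other MRL/lpr libraries. The same library held most of the excess of MHC and interferon-response RNA described further on, and list counts are therefore also given without it where a count differs by 2 or more.

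Of the 12342 genes tested, 2517 (20.4%) were called different between the strains at an adjusted p under 0.05 (limma, Benjamini-Hochberg adjustment over all tested genes). MRL/lpr was higher for 1195 of them (9.68%) and lower for 1322 (10.7%), and 180 and 158 respectively differed by at least 2-fold. In all 2517 the libraries of the strains did not overlap, a pattern that 40.7% of all tested genes showed (19% with MRL/lpr above and 21.7% with it below). The count fell to 1522 without C57BL/6 replicate 2, 1580 without C57BL/6 replicate 3, and 1197 over curated mRNAs alone. A call was kept in each of the 6 fits that left out 1 library for 1293 of these genes. Genes named below as higher or lower kept their calls in all 6 such fits, unless the libraries are named on which they rest. Differences are on the log2(FPKM + 1) scale, MRL/lpr minus C57BL/6, with the standard error of the fit, and they understate the change of genes near or below 1 FPKM. A gene below 1 FPKM throughout 1 strain was tested only where all 3 libraries of the other strain reached 1. Such a gene could be tested only with the other strain higher, so counts of lists that hold such genes were partly set by the filter.

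**Figure D1:**
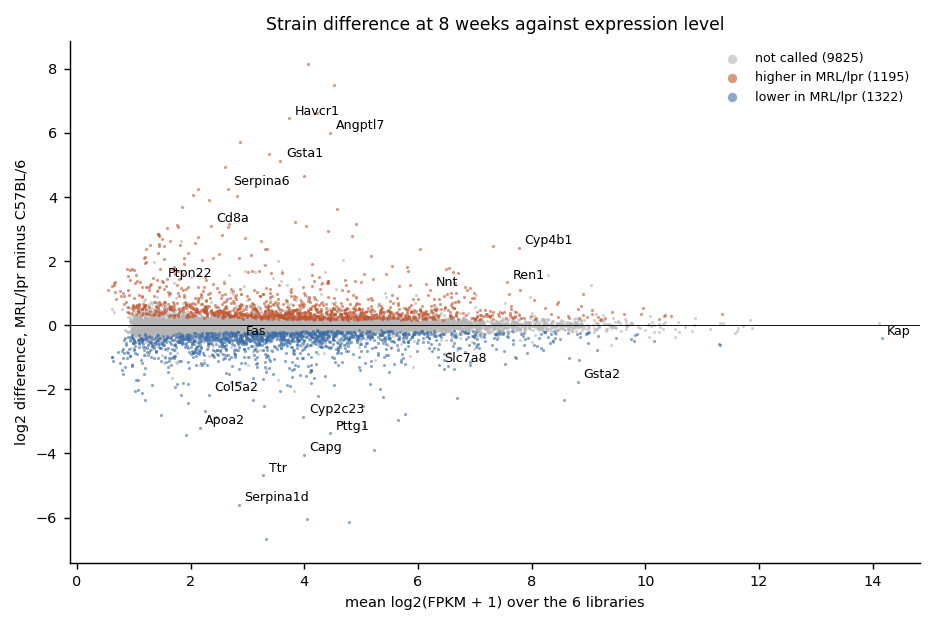
Log2 difference between MRL/lpr and C57BL/6 (vertical axis) against the mean log2(FPKM + 1) of the 6 libraries (horizontal axis), 1 point per tested gene. The 1195 genes higher in MRL/lpr are orange, the 1322 lower ones blue and the 9825 not called grey; differences beyond 2 log2 units lie mostly among genes of low to middle abundance.

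Fas itself (gene 14102, chr19:34290647-34327775), the death receptor mutated in lpr, stood at 7.6, 7.19 and 7.52 FPKM in C57BL/6 and 5.58, 4.67 and 5.96 in MRL/lpr, and the strains did not overlap. It was lower in MRL/lpr (log2 difference -0.40 ± 0.085, adjusted p = 0.0153), a call lost without C57BL/6 replicate 1 or 3 (adjusted p up to 0.0572) and in the fit to all 12 libraries (adjusted p = 0.141). Most of its signal came from 1 curated mRNA, at 6.52, 6.63 and 7.27 FPKM in C57BL/6 and 4.82, 3.77 and 4.33 in MRL/lpr. A predicted Fas mRNA held 0.5, 0.73 and 1.16 FPKM in MRL/lpr against 0.59, 0.16 and 0 in C57BL/6. Whether any of the 5 Fas mRNAs of the table takes up reads from the inserted element was not tested. Nnt (gene 18115, chr13:119335527-119409257), the mitochondrial transhydrogenase that is partly deleted in C57BL/6J mice, stood at 47.9, 48.8 and 52.9 FPKM in C57BL/6 and 117, 114 and 93.4 in MRL/lpr (log2 difference 1.10 ± 0.092, adjusted p = 0.000216). Y-linked genes were near 0 throughout: Eif2s3y, the most abundant, reached at most 0.58 FPKM, Uty at most 0.21, and the helicase gene Ddx3y at most 0.01.

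The largest differences were in genes that were near 0 in 1 strain. Havcr1 (gene 171283, chr11:46739822-46779578) encodes KIM-1, a surface receptor of injured proximal tubule cells, and stood at 0.41, 0.37 and 0.47 FPKM in C57BL/6 and 112, 106 and 157 in MRL/lpr (log2 difference 6.46 ± 0.14, adjusted p = 8.41e-07). Its main curated mRNA was listed at 0 in all 3 C57BL/6 libraries and at 106, 99.6 and 143 FPKM in MRL/lpr. The C57BL/6 signal came from another curated mRNA, at 0.41, 0.37 and 0.34 FPKM, that was listed at 0 in MRL/lpr. Of the 8 Havcr1 mRNAs in the table, none was above 0 in both strains. Angptl7 (gene 654812, chr4:148495181-148500462), a secreted angiopoietin-like protein, stood at 1.78, 1.58 and 1.87 FPKM in C57BL/6 and 239, 149.8 and 149 in MRL/lpr (log2 difference 6.004 ± 0.19, adjusted p = 8.28e-06), with MRL/lpr replicate 1 the highest. Serpina6 (gene 12401, chr12:103646630-103657218), the plasma carrier of corticosteroids, stood at 0.47, 0.43 and 0.43 FPKM in C57BL/6 and 24.7, 12.9 and 57.3 in MRL/lpr (log2 difference 4.25 ± 0.49, adjusted p = 0.00223). The MRL/lpr libraries spread widely in this gene, yet the lowest lay far above C57BL/6.

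Rnase4 (gene 58809, chr14:51091077-51106151), a secreted ribonuclease, stood at 8.08, 9.69 and 9.49 FPKM in C57BL/6 and 85, 106 and 78.4 in MRL/lpr (log2 difference 3.16 ± 0.12, adjusted p = 6.27e-06), almost all of it from 1 curated mRNA. H2bc1 (gene 319177, chr13:23933725-23934156), a histone H2B gene best known from testis, was listed at 0 in all C57BL/6 libraries and stood at 14.7, 14.9 and 17.8 FPKM in MRL/lpr (adjusted p = 2.54e-07). Pianp, a neural membrane protein, stood at 0.23, 0.05 and 0.2 FPKM in C57BL/6 and 8.73, 7.63 and 11.01 in MRL/lpr (log2 difference 3.12 ± 0.13, adjusted p = 6.47e-06). Cd8a, the coreceptor of cytotoxic T cells, stood at 0.78, 0.75 and 0.7 FPKM in C57BL/6 and 14.1, 15.9 and 12.4 in MRL/lpr (log2 difference 3.11 ± 0.093, adjusted p = 1.25e-06), with MRL/lpr replicate 3 the lowest of its group.

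Among the genes lower in MRL/lpr, Capg (gene 12332, chr6:72538282-72562983), which caps actin filaments, stood at 61.6, 58.99 and 71.8 FPKM in C57BL/6 and 2.97, 2.24 and 3.65 in MRL/lpr (log2 difference -4.05 ± 0.14, adjusted p = 5.01e-06). Pttg1 (gene 30939, chr11:43420244-43427463), the securin that delays the separation of sister chromatids, stood at 71.6, 69.5 and 67.4 FPKM in C57BL/6 and 6.47, 5.28 and 5.76 in MRL/lpr (log2 difference -3.37 ± 0.071, adjusted p = 2.01e-07). Most of both signals came from 1 predicted mRNA each. For Capg that mRNA held 60.5, 59.0 and 69.8 FPKM in C57BL/6, and its 4 curated mRNAs reached at most 1.39 in any library. Cpn1, the catalytic subunit of a plasma carboxypeptidase that trims complement fragments, stood at 103, 95.5 and 92.3 FPKM in C57BL/6 and 10.1, 11.5 and 8.93 in MRL/lpr (log2 difference -3.14 ± 0.088, adjusted p = 1.02e-06). Inmt, an indole N-methyltransferase, stood at 164, 135 and 123 FPKM in C57BL/6 and 13.4, 26.4 and 13.8 in MRL/lpr (log2 difference -2.96 ± 0.27, adjusted p = 0.000845). Cyp2c23, an arachidonic acid epoxygenase of the kidney, stood at 46.5, 44.4 and 34.5 FPKM in C57BL/6 and 4.71, 6.21 and 3.97 in MRL/lpr (log2 difference -2.85 ± 0.16, adjusted p = 8.67e-05). In each of these 5 genes the highest MRL/lpr library lay far below the lowest C57BL/6 library.

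**Figure D2:**
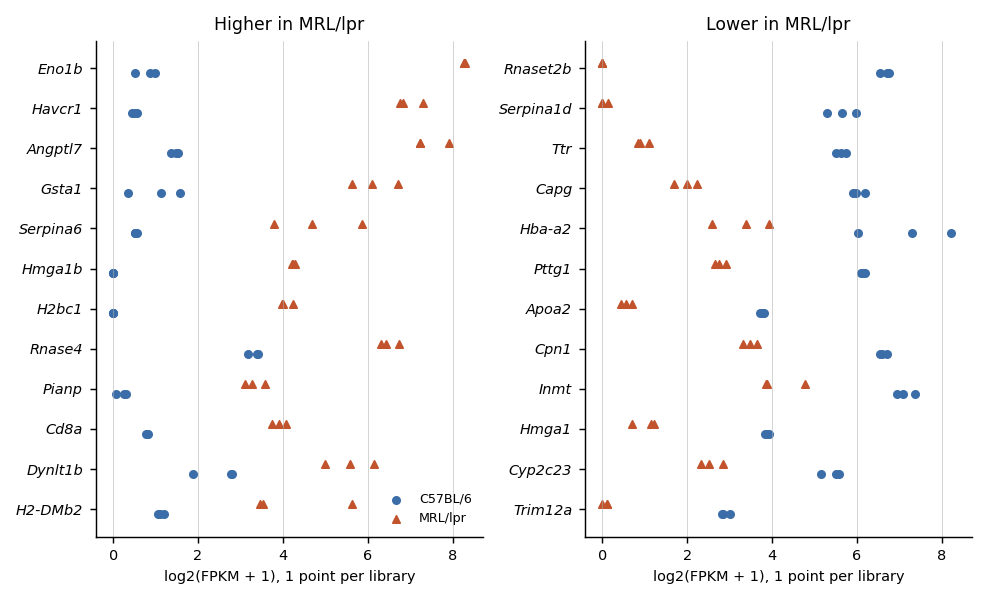
log2(FPKM + 1) of the 12 genes with the largest differences in each direction, by library; blue circles are the 3 C57BL/6 libraries and orange triangles the 3 MRL/lpr libraries. The genes were chosen to have no overlap of the strains. All C57BL/6 points of Hmga1b and H2bc1, and all MRL/lpr points of Rnaset2b, lie at 0.

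Several of the genes with the largest differences have a near-identical copy elsewhere in the genome, and the program that made the FPKM divides reads between such copies. The pair Gsta1 and Gsta2, alpha-class glutathione transferases that detoxify lipid peroxidation products, shows how few bases separate them. Their coding sequences (GRCm38, chromosome 9, GENCODE M21) differ at 13 of 666 aligned bases. The 60-base stretch with the most differences, coding bases 449 to 508, is printed on the coding strand, with the 5 bases that differ in capitals.
Gsta1: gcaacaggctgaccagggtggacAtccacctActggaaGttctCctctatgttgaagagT
Gsta2: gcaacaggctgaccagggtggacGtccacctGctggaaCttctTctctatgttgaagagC
Gsta1 stood at 1.96, 1.19 and 0.27 FPKM in C57BL/6 and 104, 67.5 and 48.4 in MRL/lpr (log2 difference 5.13 ± 0.39, adjusted p = 0.000419), whereas Gsta2 stood at 904, 809.7 and 773 FPKM in C57BL/6 and 319, 268 and 165 in MRL/lpr (log2 difference -1.77 ± 0.24, adjusted p = 0.00415). Their sum was lower in MRL/lpr (-1.41 ± 0.25, adjusted p = 0.0132), so the gain of Gsta1 was far smaller than the loss of Gsta2 in FPKM.

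In other copies the sum differed less than the single genes. Eno1, the glycolytic enzyme enolase, and its copy Eno1b differ at 8 of 1302 coding bases. Eno1b stood at 0.82, 0.42 and 0.98 FPKM in C57BL/6 and 305, 314 and 307 in MRL/lpr and Eno1 at 596, 521 and 593 against 289, 302 and 258, and the sum was not called different (0.054 ± 0.07, adjusted p = 0.629). Hmga1 and Hmga1b, copies of an architectural chromatin protein, have identical coding sequences of 321 bases on chromosomes 17 and 11. Hmga1 stood at 13.8, 13.2 and 14.2 FPKM in C57BL/6 and 1.31, 1.22 and 0.61 in MRL/lpr and Hmga1b at 0, 0 and 0 against 17.8, 17.5 and 18.6, and the sum was higher in MRL/lpr (0.44 ± 0.05, adjusted p = 0.000963, and 0.213 in the fit to all 12 libraries). Rnaset2a and Rnaset2b, lysosomal ribonucleases, are identical over 777 coding bases. Rnaset2b was listed at 0 in all MRL/lpr libraries against 92.7, 103 and 107 FPKM in C57BL/6, and the sum differed the other way (0.22 ± 0.054, adjusted p = 0.0272), a call lost without any 1 library but MRL/lpr replicate 1 (up to 0.07915). For these pairs the difference in a single copy was many times that of the sum.

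Dynlt1b, a light chain of the dynein motor, stood at 5.94, 2.67 and 5.89 FPKM in C57BL/6 and 70.3, 47.1 and 30.6 in MRL/lpr and differs from Dynlt1c at 1 of 339 coding bases. Over the 4 Dynlt1 copies the sum stood at 108, 93.3 and 90.5 FPKM in C57BL/6 and 260.2, 236 and 209 in MRL/lpr (1.27 ± 0.097, adjusted p = 0.000152), so here the family as a whole was higher in MRL/lpr. Serpina1d, an alpha-1 antitrypsin gene, stood at 48.8, 38.5 and 62.3 FPKM in C57BL/6 and 0.1, 0 and 0 in MRL/lpr, and the sum over the 5 Serpina1 copies was lower (-3.16 ± 0.20, adjusted p = 0.000207). Trim12a, a tripartite-motif gene that varies between mouse strains, stood at 6.11, 7.01 and 6 FPKM in C57BL/6 and 0.07, 0 and 0.07 in MRL/lpr, and its sum with Trim12c was lower (-0.84 ± 0.14, adjusted p = 0.00700, and 0.0551 in the fit to all 12 libraries). The alpha globins Hba-a1 and Hba-a2 differ at 1 of 426 coding bases, and their sum varied so much between libraries, 87.8, 419 and 256 FPKM in C57BL/6 and 575, 383 and 267 in MRL/lpr, that no difference was called (adjusted p = 0.397). A read that fits more than 1 copy cannot be placed with certainty, and reads of both strains were aligned to a C57BL/6 genome, so values of single copies are uncertain.

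**Figure D3:**
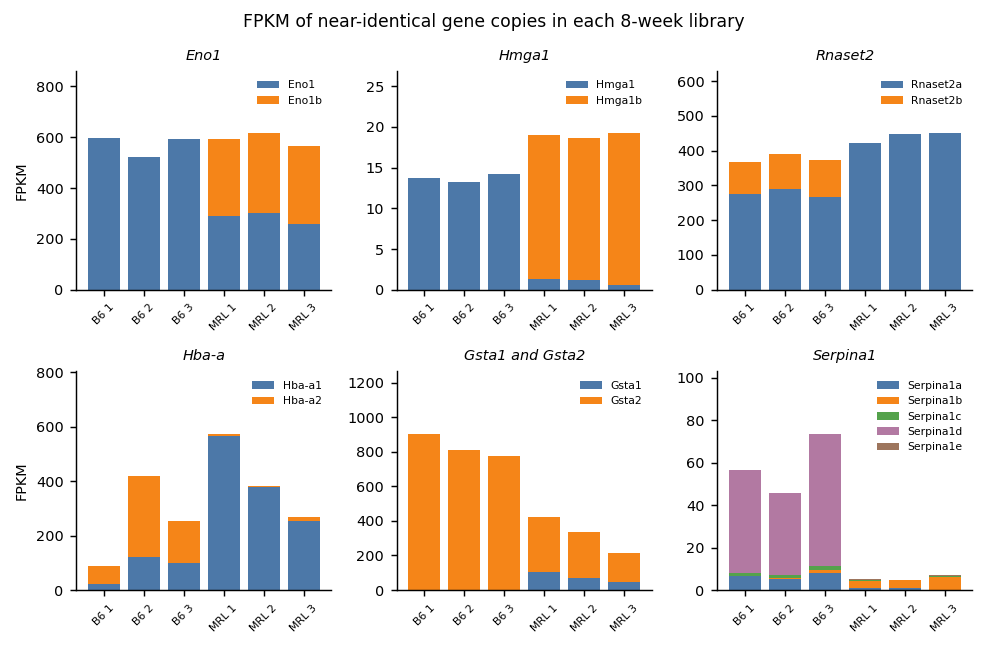
FPKM of near-identical gene copies, stacked, in each 8-week library (B6, C57BL/6; MRL, MRL/lpr; numbers are replicates). The Eno1 bars reach like heights in both strains while the share of Eno1b differs, and the Serpina1 and Gsta bars are lower in MRL/lpr.

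Along the nephron, genes were called in both directions, beside 9.68% higher and 10.7% lower among all tested genes. Of 20 tested podocyte genes, 5 were lower and 1 higher in MRL/lpr, or 6 and 1 without MRL/lpr replicate 3, with a median log2 difference of -0.16 against -0.015 for all tested genes. Wt1, the transcription factor that maintains podocytes, stood at 6.97, 5.51 and 6.09 FPKM in C57BL/6 and 3.84, 3.72 and 3.84 in MRL/lpr (log2 difference -0.58 ± 0.085, adjusted p = 0.00311). Col4a4, a collagen IV chain of the glomerular basement membrane, was the member that was higher, at 32.9, 34.95 and 35.01 FPKM in C57BL/6 and 46.5, 43.4 and 44.6 in MRL/lpr (log2 difference 0.38 ± 0.051, adjusted p = 0.00222). The parietal epithelium gene Cldn1, a tight junction claudin, was higher (0.38 ± 0.069, adjusted p = 0.00819, and 0.280 in the fit to all 12 libraries). In limma's fit 0 of the 8 mesangial genes and 0 of the 7 thin limb genes tested were called, with 1 and 2 at an unadjusted p under 0.05; without MRL/lpr replicate 3, 2 mesangial genes were lower.

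Of 20 early proximal tubule genes, 7 were higher and 1 lower (median 0.13), or 5 and 1 without MRL/lpr replicate 3. The lower one, Slc7a8, a basolateral exporter of neutral amino acids, stood at 123, 130.5 and 125 FPKM in C57BL/6 and 54.9, 55.6 and 47.4 in MRL/lpr (log2 difference -1.25 ± 0.07, adjusted p = 2.84e-05), with no overlap. Slc5a12, a lactate cotransporter, was higher (0.74 ± 0.12, adjusted p = 0.00607, and 0.124 in the fit to all 12 libraries). Slc16a12, a monocarboxylate and creatine transporter, was higher (0.50 ± 0.083, adjusted p = 0.00522, and 0.294 over curated mRNAs alone). Late proximal tubule genes split 4 higher to 1 lower of 15 (median -0.017). Slc7a13, an acidic amino acid transporter of the S3 segment, stood at 1.33, 0.42 and 1.03 FPKM in C57BL/6 and 5.97, 5.09 and 7.61 in MRL/lpr (log2 difference 1.92 ± 0.21, adjusted p = 0.00105).

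The thick ascending limb list had 2 members higher and 3 lower of 13 (median -0.26), with none of the latter called without MRL/lpr replicate 3. Cldn16, the claudin that lets magnesium and calcium through, was higher at 13.1, 12.9 and 13.7 FPKM in C57BL/6 and 20.3, 20.96 and 17.6 in MRL/lpr (log2 difference 0.53 ± 0.073, adjusted p = 0.00235), a call lost in the fit to all 12 libraries (adjusted p = 0.151). Of 11 distal convoluted tubule genes 1 was higher, the calcium buffer Pvalb, at 40.03, 29.1 and 24.6 FPKM in C57BL/6 and 108, 116 and 82.99 in MRL/lpr (log2 difference 1.69 ± 0.20, adjusted p = 0.00268; adjusted p = 0.102 in the fit to all 12 libraries), and 2 were lower. Of 13 principal cell genes of the collecting duct 1 was higher and 2 were lower, with a median of -0.235. The higher one, the basolateral water channel Aqp4 (0.65 ± 0.12, adjusted p = 0.00916, and 0.251 in the fit to all 12 libraries), was the only member with a positive difference. The apical channel Aqp2 differed by -0.35 ± 0.13 without a call (adjusted p = 0.114). Of 17 genes of the acid-secreting intercalated cell 3 were lower and 0 higher, and the median was -0.093, or 0.01 without MRL/lpr replicate 3. Atp6v1g3, a subunit of the proton pump, stood at 27.4, 21.8 and 21.8 FPKM in C57BL/6 and 15.04, 15.9 and 12.9 in MRL/lpr (log2 difference -0.66 ± 0.11, adjusted p = 0.00586). The ammonia transporter Rhcg differed by -0.65 ± 0.12 (adjusted p = 0.0107, and 0.401 over curated mRNAs alone).

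Markers of tubular injury did not move together, although Havcr1 is one of them. Of 18 tested, 6 were higher and 5 lower, with a median of -0.29, beside 9.68% higher and 10.7% lower among all tested genes. Without MRL/lpr replicate 3 the counts were 5 and 2. C3, the central complement protein that damaged tubules make, stood at 10.5, 10.8 and 9.42 FPKM in C57BL/6 and 24.04, 15.98 and 25.4 in MRL/lpr (log2 difference 0.997 ± 0.17, adjusted p = 0.00864), a call lost in the fit to all 12 libraries (adjusted p = 0.538). Fgb, the fibrinogen beta chain, went the other way at 1.61, 2.75 and 1.7 FPKM in C57BL/6 and 0, 0.1 and 0.03 in MRL/lpr (log2 difference -1.51 ± 0.15, adjusted p = 0.000517). Vcam1, an adhesion molecule for leukocytes, stood at 4.03, 4.17 and 4.53 FPKM in C57BL/6 and 8.75, 5.98 and 10.8 in MRL/lpr (log2 difference 0.83 ± 0.18, adjusted p = 0.0205), a call lost without any 1 of the C57BL/6 libraries or MRL/lpr replicate 1 (up to 0.0756). Spp1, osteopontin, the most abundant member, differed by 0.29 ± 0.075 (adjusted p = 0.0306), a call lost when any library but MRL/lpr replicate 3 was left out (up to 0.1002).

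Vascular genes were among the lists with the lowest medians. Of 20 endothelial genes 8 were lower and 0 higher (median -0.39), beside 10.7% lower and 9.68% higher among all tested genes. Without MRL/lpr replicate 3, 11 were lower. Robo4, a guidance receptor that keeps vessels tight, stood at 8.71, 10.1 and 12.2 FPKM in C57BL/6 and 6.52, 4.7 and 6.29 in MRL/lpr (log2 difference -0.73 ± 0.14, adjusted p = 0.0133), with every MRL/lpr library below every C57BL/6 library. Emcn, the mucin of capillary endothelium, stood at 52.1, 57.4 and 59.5 FPKM in C57BL/6 and 41.8, 32.95 and 41.5 in MRL/lpr (log2 difference -0.53 ± 0.1, adjusted p = 0.00942; adjusted p = 0.0622 in the fit to all 12 libraries). Sox17, an arterial transcription factor, differed by -0.87 ± 0.19 (adjusted p = 0.0194), a call lost without any 1 of the C57BL/6 libraries (up to 0.0723). Plvap, the diaphragm protein of fenestrated capillaries and the most abundant member, differed by -0.47 ± 0.19 without a call (adjusted p = 0.129). Here and in the other lists, fewer cells of a type and less RNA per cell cannot be told apart in whole-kidney RNA.

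Pericyte and smooth muscle genes were also called in the lower direction, with 6 of 14 lower, 0 higher and a median of -0.38. Of all tested genes 10.7% were lower and 9.68% higher. Without MRL/lpr replicate 3, 10 of the list were lower. Rgs5, a G protein regulator that marks pericytes, stood at 18.6, 19.7 and 20.3 FPKM in C57BL/6 and 9.74, 6.82 and 8.31 in MRL/lpr (log2 difference -1.16 ± 0.11, adjusted p = 0.000475), clear of overlap. Acta2, smooth muscle actin, stood at 26.7, 33.4 and 28.9 FPKM in C57BL/6 and 21.6, 18.5 and 16.9 in MRL/lpr (log2 difference -0.62 ± 0.11, adjusted p = 0.00735; adjusted p = 0.0809 in the fit to all 12 libraries). Abcc9, a subunit of vascular potassium channels, differed by -0.59 ± 0.086 (adjusted p = 0.00307). Fibroblast and matrix genes held 2 lower and 1 higher of 23 (median -0.17, and -0.36 with 6 lower without MRL/lpr replicate 3). Col5a2, a fibril collagen chain, stood at 8.88, 10.2 and 10 FPKM in C57BL/6 and 1.41, 1.22 and 1.45 in MRL/lpr (log2 difference -2.18 ± 0.08, adjusted p = 3.33e-06). Fn1, fibronectin, was higher (0.83 ± 0.18, adjusted p = 0.0213), a call lost without any 1 of the C57BL/6 libraries (up to 0.0805).

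**Figure D4:**
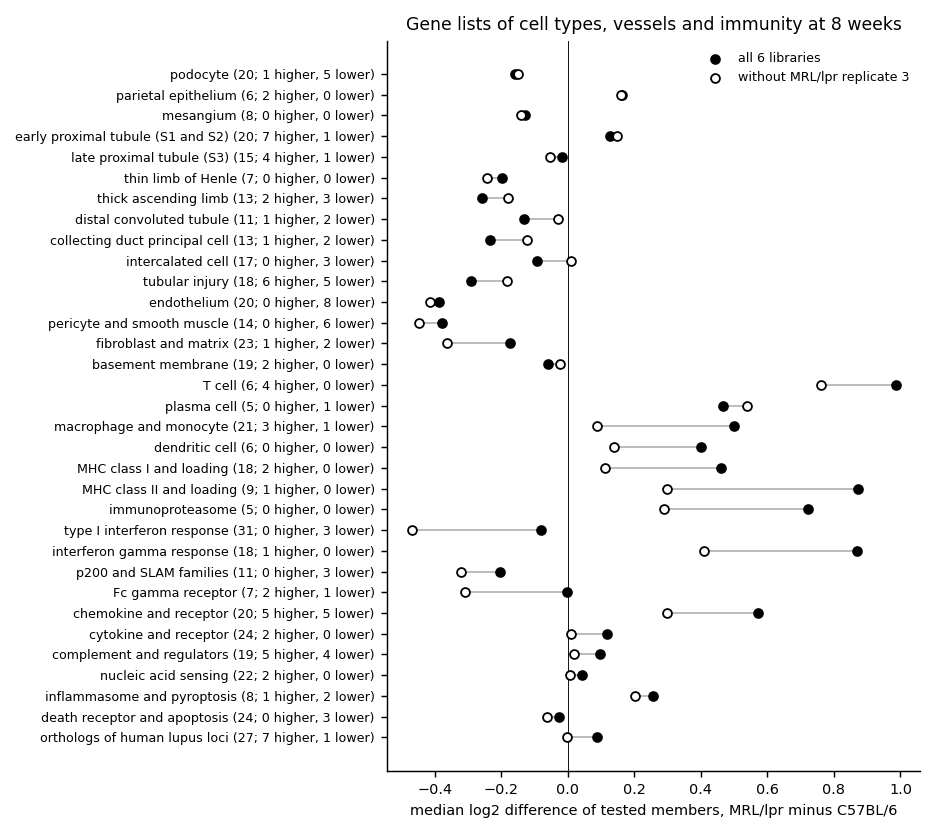
Median log2 difference (MRL/lpr minus C57BL/6) of the tested members of each list with 5 or more, with the number tested and called in brackets; filled points use all 6 libraries and open points leave out MRL/lpr replicate 3. Endothelial and pericyte lists lie at -0.39 and -0.38 with all libraries, and the medians of the MHC and interferon lists are smaller without replicate 3 of MRL/lpr.

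Most leukocyte genes were too low to test. Of 23 T cell genes found, 6 were tested, and 4 of these were higher in MRL/lpr and 0 lower (median 0.99, or 0.76 without MRL/lpr replicate 3). For this and the next lists, the shares among all tested genes were 9.68% higher and 10.7% lower. Cd8a, Lat and Cd4 lay below 1 FPKM in every C57BL/6 library and passed the filter only through MRL/lpr. The counts and the median of this list were therefore partly set by the filter. The summed FPKM of the whole list was 10, 12 and 11.1 in C57BL/6 and 34.5, 33.2 and 49.4 in MRL/lpr, of which Cd8a made up 14.1, 15.9 and 12.4. Cd8a is also in the list of genes known to vary between laboratory strains, and Cd8b1 was too low to test. Lat, the adaptor of the T cell receptor, stood at 0.75, 0.48 and 0.71 FPKM in C57BL/6 and 1.94, 1.6 and 2.57 in MRL/lpr (log2 difference 0.87 ± 0.14, adjusted p = 0.00421; adjusted p = 0.264 in the fit to all 12 libraries). Cd4, the helper T cell coreceptor, stood at 0.61, 0.44 and 0.6 FPKM in C57BL/6 and 1.88, 1.9 and 4.22 in MRL/lpr (log2 difference 1.19 ± 0.23, adjusted p = 0.0132), a call lost without C57BL/6 replicate 2 (adjusted p = 0.0551). Lat and Cd4 were higher in all 3 MRL/lpr libraries and highest in replicate 3. Of 16 B cell genes 3 were tested and 0 were called by limma (1 at an unadjusted p under 0.05), with summed levels of 24.7, 22.8 and 22.2 FPKM in C57BL/6 and 24.3, 18.8 and 22.8 in MRL/lpr. The plasma cell list had 1 call of 5, Sdc1, a proteoglycan that epithelia also make, which was lower (-0.48 ± 0.093, adjusted p = 0.0106, and 0.461 in the fit to all 12 libraries).

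Macrophage and monocyte genes held 3 higher and 1 lower of 21, beside 9.68% higher and 10.7% lower among all tested genes. Without MRL/lpr replicate 3 the counts were 4 and 2, and the median of 0.50 became 0.088. Lyz2, the lysozyme of macrophages, stood at 17.2, 15.9 and 19.1 FPKM in C57BL/6 and 47.7, 31.6 and 68.96 in MRL/lpr (log2 difference 1.39 ± 0.27, adjusted p = 0.0157), a call lost without any 1 of the C57BL/6 libraries or MRL/lpr replicate 1 (up to 0.0663). Fcgr2b, the inhibitory receptor for IgG, was lower at 35.04, 33.1 and 32.1 FPKM in C57BL/6 and 25.03, 24.2 and 25.6 in MRL/lpr (log2 difference -0.41 ± 0.053, adjusted p = 0.00176; adjusted p = 0.152 in the fit to all 12 libraries). The neutrophil granule genes Mpo and Elane were listed at 0 in all 6 libraries. Of the 6 dendritic cell genes tested 0 were called by limma, and 0 had an unadjusted p under 0.05.

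Antigen presentation and interferon genes stood highest in 1 library. B2m, the light chain of MHC class I, stood at 340.5, 338 and 339.96 FPKM in C57BL/6 and 533, 508 and 1994 in MRL/lpr, and the MHC class II chaperone Cd74 at 187, 179 and 177 FPKM in C57BL/6 and 294, 272 and 1963 in MRL/lpr. Replicates 1 and 2 of MRL/lpr lay modestly above C57BL/6, and replicate 3 several times higher. Neither gene was called with all 6 libraries (adjusted p = 0.147 and 0.198), and both were without MRL/lpr replicate 3 (B2m 0.62, adjusted p = 0.000389; Cd74 0.64, adjusted p = 0.000568). The immunoproteasome had 0 calls of 5 with all libraries, at a median of 0.72 and with 2 at an unadjusted p under 0.05 (limma), and 4 higher without replicate 3, at a median of 0.29. MHC class II genes went from 1 to 4 higher of 9 (median 0.87 to 0.30). Interferon gamma response genes went from 1 to 10 higher and from 0 to 2 lower of 18 (median 0.87 to 0.41), beside 8.9% higher and 10.2% lower among all genes in that fit. Calls were thus more numerous, and differences smaller, once the library was left out.

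Single genes showed the split. Igtp, an interferon-inducible GTPase named here after its values were seen, stood at 11.1, 11.7 and 9.17 FPKM in C57BL/6 and 18.4, 21.3 and 113 in MRL/lpr, with a log2 difference of 1.65 ± 0.67 (adjusted p = 0.138) with all libraries and of 0.84, adjusted p = 0.00254 without replicate 3. Cxcl9, a chemokine that draws T cells, kept its call in every fit with 1 library left out, at 0.81, 1.4 and 1.15 FPKM in C57BL/6 and 3.37, 2.67 and 4.09 in MRL/lpr (log2 difference 1.04 ± 0.15, adjusted p = 0.00285). Of the type I interferon list 3 of 31 were lower and 0 higher (median -0.082), a share of lower calls near the 10.7% of all tested genes. Without replicate 3, 10 were lower (median -0.47), beside 10.2% of all genes in that fit. Samd9l, an antiviral restriction factor, stood at 33.6, 34.5 and 36.2 FPKM in C57BL/6 and 19.9, 18.7 and 20.4 in MRL/lpr (log2 difference -0.79 ± 0.055, adjusted p = 8.17e-05), though over its curated mRNA alone the call was lost (adjusted p = 0.284). Ifit3, which binds viral RNA complexes, stood at 12.5, 22.4 and 18.9 FPKM in C57BL/6 and 4.65, 3.07 and 10.8 in MRL/lpr (log2 difference -1.51 ± 0.41, adjusted p = 0.0494), a call lost when any library but MRL/lpr replicate 3 was left out (up to 0.174). Median levels against the C57BL/6 mean were -0.35, -0.56 and 0.60 for this list in MRL/lpr replicates 1, 2 and 3, against 0.38, 0.44 and 1.78 for the interferon gamma list. Replicates 1 and 2 therefore lay below C57BL/6 in one list and above it in the other.

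In the list of MHC class I and peptide loading genes 2 were higher and 0 lower of 18, beside 9.68% and 10.7% of all tested genes. Without MRL/lpr replicate 3 the counts were 3 and 3. The 2 higher members were Calr and Pdia3, chaperones of the endoplasmic reticulum that are also in the stress list, and both calls were lost in each of the 6 fits that left out 1 library (adjusted p up to 0.153 and 0.141). No other member of this list was called with all libraries. The classical gene H2-D1 and the nonclassical H2-Q7, both named after their values were seen, were among the 3 lower without it, at 175, 189 and 175 FPKM in C57BL/6 and 108, 102 and 450.5 in MRL/lpr and at 28.9, 29.7 and 24.8 FPKM in C57BL/6 and 3.61, 2.53 and 19.03 in MRL/lpr. H2-DMb2, which helps load class II molecules, stood at 1.31, 1.09 and 1.15 FPKM in C57BL/6 and 10.6, 9.99 and 48.2 in MRL/lpr (log2 difference 3.08 ± 0.57, adjusted p = 0.0144), a call lost without any 1 of the C57BL/6 libraries (up to 0.0770). Its sum with the copy H2-DMb1 was not called by limma with all libraries (adjusted p = 0.237). Without MRL/lpr replicate 3 the sum was higher (0.48, adjusted p = 0.00493). MHC genes vary in sequence between strains and were quantified on a C57BL/6 genome, and what that adds to these values was not tested.

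The promoters of the MHC, immunoproteasome and interferon lists, members lower in MRL/lpr included, were searched for the core of the interferon-stimulated response element, GAAA, any 2 bases and GAAA on either strand, and for the gamma-activated site, TTC, any 3 bases and GAA, which reads the same on both strands. Matches of the motifs can overlap. The windows ran from 250 bases before to 50 bases after each start (RefSeq, GRCm38.p6). The core was found for 3.99% of all 27025 genes with a window, and for 11 of 14 interferon gamma, 13 of 24 type I interferon, 4 of 17 MHC class I, 1 of 9 MHC class II and 1 of 5 immunoproteasome genes. The gamma-activated site was found for 9.55% of all genes, and for 7 of 14 interferon gamma, 4 of 24 type I interferon, 1 of 17 MHC class I, 1 of 9 MHC class II and 1 of 5 immunoproteasome genes. The 250 bases before the start are printed for B2m (chr2:122147437-122147686, plus strand) and Igtp (chr11:58199306-58199555, plus strand), with motif matches in capitals. B2m is a highly abundant member and Igtp one with a large difference, and neither was called with all libraries.
B2m: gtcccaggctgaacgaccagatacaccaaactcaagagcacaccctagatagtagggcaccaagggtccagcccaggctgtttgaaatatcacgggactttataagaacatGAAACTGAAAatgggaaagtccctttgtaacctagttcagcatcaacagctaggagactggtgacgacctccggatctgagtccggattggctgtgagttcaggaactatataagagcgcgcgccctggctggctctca
Igtp: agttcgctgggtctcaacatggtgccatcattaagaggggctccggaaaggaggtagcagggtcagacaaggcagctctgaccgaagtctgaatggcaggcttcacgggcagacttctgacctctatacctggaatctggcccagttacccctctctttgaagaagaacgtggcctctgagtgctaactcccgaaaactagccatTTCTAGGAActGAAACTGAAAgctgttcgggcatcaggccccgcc
B2m holds 1 core match in this stretch, and Igtp holds 1 core match and 1 gamma-activated site next to each other. A match describes these letters only.

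**Figure D5:**
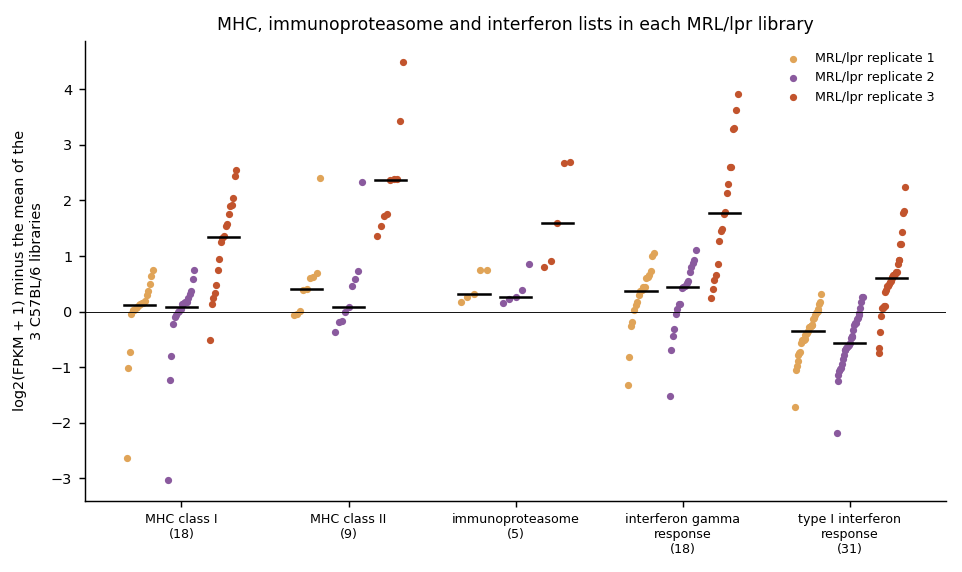
log2(FPKM + 1) of each tested member of 5 immune lists in the 3 MRL/lpr libraries, relative to the mean of the 3 C57BL/6 libraries; black bars are medians and the number of members stands under each list. MRL/lpr replicate 3 has the highest median in every list, from 0.60 to 2.37.

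Complement genes were called in both directions, 5 higher and 4 lower of 19, beside 9.68% and 10.7% of all tested genes. The same counts were found without MRL/lpr replicate 3. Cfb, the alternative pathway protease, was higher at 124, 129 and 115 FPKM in C57BL/6 and 162, 182 and 166 in MRL/lpr (log2 difference 0.47 ± 0.068, adjusted p = 0.00298). The surface inhibitor Cd55 was lower, at 6.91, 7.32 and 6.88 FPKM in C57BL/6 and 4.08, 3.63 and 3.59 in MRL/lpr (log2 difference -0.75 ± 0.069, adjusted p = 0.000322). C4b, a classical pathway component, stood at 0.7, 0.97 and 0.72 FPKM in C57BL/6 and 3.78, 4.77 and 15.1 in MRL/lpr (log2 difference 2.09 ± 0.45, adjusted p = 0.0230), a call lost without any 1 of the C57BL/6 libraries or MRL/lpr replicate 2 (up to 0.0955). No libraries overlapped in Cfb, Cd55 or C4b.

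Chemokine genes divided evenly, with 5 higher and 5 lower of 20, or 6 and 8 without MRL/lpr replicate 3. Shares among all tested genes were 9.68% higher and 10.7% lower. Ccl2, which recruits monocytes, stood at 0.67, 0.74 and 0.82 FPKM in C57BL/6 and 5.96, 4.04 and 4.7 in MRL/lpr (log2 difference 1.75 ± 0.12, adjusted p = 9.22e-05; adjusted p = 0.178 in the fit to all 12 libraries), and unlike the MHC genes was not highest in replicate 3. Cxcl14, a chemokine of epithelia, was lower at 13.3, 16.01 and 20.1 FPKM in C57BL/6 and 5.06, 2.71 and 5.83 in MRL/lpr (log2 difference -1.69 ± 0.26, adjusted p = 0.00669). Of the p200 and SLAM families, clustered on chromosome 1 in an interval linked to lupus in mice, 3 of 11 were lower, or 5 without MRL/lpr replicate 3. Ifi213, a p200 gene, stood at 1.37, 1.68 and 1.66 FPKM in C57BL/6 and 0.14, 0.18 and 0.05 in MRL/lpr (log2 difference -1.19 ± 0.10, adjusted p = 0.000254). Fc receptor genes included Fcamr, a receptor for IgA and IgM, at 1.17, 1.55 and 0.94 FPKM in C57BL/6 and 4.66, 5.68 and 2.86 in MRL/lpr (log2 difference 1.25 ± 0.21, adjusted p = 0.00680), and Fcgrt, which recycles IgG and albumin, at 178, 165 and 155 FPKM in C57BL/6 and 234, 240.5 and 231 in MRL/lpr (log2 difference 0.50 ± 0.062, adjusted p = 0.00146). Both were higher with no overlap, against the lower Fcgr2b.

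Of 27 tested orthologs of genes at human lupus loci, 7 were higher and 1 lower, beside 9.68% and 10.7% of all tested genes. Among the higher ones, Ptpn22 and C4b lay below 1 FPKM throughout C57BL/6 and passed the filter only through MRL/lpr. The filter therefore partly set the count of higher members. Without MRL/lpr replicate 3 it was 6 and 4. Ptpn22, a phosphatase that restrains T cell receptor signals, stood at 0.66, 0.88 and 0.72 FPKM in C57BL/6 and 3.2, 3.86 and 3.73 in MRL/lpr (log2 difference 1.39 ± 0.096, adjusted p = 8.25e-05). Slc15a4, a lysosomal transporter needed for Toll-like receptor signals, stood at 6.33, 7.31 and 6.31 FPKM in C57BL/6 and 11.7, 11.5 and 11.1 in MRL/lpr (log2 difference 0.70 ± 0.069, adjusted p = 0.000477). Inflammasome and pyroptosis genes held 1 higher and 2 lower of 8, with a median of 0.255. The lower ones were Pycard, the adaptor of inflammasomes, at 5.06, 3.6 and 3.82 FPKM in C57BL/6 and 1.46, 1.42 and 1.27 in MRL/lpr (log2 difference -1.10 ± 0.12, adjusted p = 0.000663), and their partner kinase Nek7 (-0.41 ± 0.058, adjusted p = 0.00266). Apart from Fas, the 24 death receptor and apoptosis genes held 2 calls, both lower, Mcl1 and Casp9, and both were lost when 1 library was left out (C57BL/6 replicate 1 or 3 for Mcl1; any but C57BL/6 replicate 1 for Casp9; adjusted p up to 0.0758 and 0.121).

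Genes of the renin-angiotensin and kallikrein systems, which set blood pressure and sodium balance, split 4 higher to 4 lower of 15. Shares among all tested genes were 9.68% higher and 10.7% lower. Renin, encoded by Ren1 (gene 19701, chr1:133350674-133360320), stood at 121, 119 and 114 FPKM in C57BL/6 and 255, 335 and 319 in MRL/lpr (log2 difference 1.343 ± 0.099, adjusted p = 0.000124). Its substrate Agt stood at 60.9, 59.95 and 65.3 FPKM in C57BL/6 and 100.4, 86.8 and 101 in MRL/lpr (log2 difference 0.62 ± 0.072, adjusted p = 0.00106). Both enzyme and substrate were thus higher in every MRL/lpr library. Kng2, a kininogen, was lower (-0.38 ± 0.084, adjusted p = 0.0193), a call lost without C57BL/6 replicate 3 (adjusted p = 0.0627), and the kallikrein Klk1 differed by -0.25 ± 0.15 without a call (adjusted p = 0.265). Hsd11b2, which shields the mineralocorticoid receptor from glucocorticoids, was lower (-0.36 ± 0.075, adjusted p = 0.0145), a call lost without C57BL/6 replicate 2 (adjusted p = 0.0551).

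Sex-biased kidney genes did not follow 1 direction. Male-biased genes held 7 higher and 4 lower of 21 (median 0.23), and female-biased genes 2 and 4 of 18 (median -0.08). All tested genes held 9.68% higher and 10.7% lower. Cyp4b1, a fatty acid and xenobiotic monooxygenase that androgen raises, stood at 101, 112 and 72.4 FPKM in C57BL/6 and 647, 533 and 365 in MRL/lpr (log2 difference 2.41 ± 0.25, adjusted p = 0.00153). Cyp4a12a, which makes the vasoconstrictor 20-HETE, stood at 1.21, 1.28 and 0.87 FPKM in C57BL/6 and 3.96, 5.61 and 4.66 in MRL/lpr (log2 difference 1.43 ± 0.13, adjusted p = 0.000308). Against these, the male-biased Cyp2d9 was lower at 22.6, 13.8 and 19.2 FPKM in C57BL/6 and 3.21, 2.22 and 3.09 in MRL/lpr (log2 difference -2.33 ± 0.19, adjusted p = 0.000397). Kap, an androgen-regulated protein and the most abundant member, stood at 20528, 20106 and 22502 FPKM in C57BL/6 and 13965, 15803 and 18022 in MRL/lpr (log2 difference -0.41 ± 0.1, adjusted p = 0.0266), a call lost when any library but MRL/lpr replicate 3 was left out (up to 0.0883). The female-biased Gsta4, which conjugates the lipid aldehyde hydroxynonenal, was lower at 165, 160.2 and 149 FPKM in C57BL/6 and 65.5, 62.4 and 54.7 in MRL/lpr (log2 difference -1.37 ± 0.077, adjusted p = 2.91e-05).

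Genes of plasma proteins best known from liver had the lowest median of the lists, -1.18, with 12 lower and 3 higher of 16. Among all tested genes 10.7% were lower and 9.68% higher. Members such as Apoa2, Serpina1c, Serpina1d and Fgb lay below 1 FPKM throughout MRL/lpr and passed the filter only through C57BL/6, and Serpina6 only through MRL/lpr. The filter therefore partly set the counts and the median of this list. Serpina1a, Serpina1c and Serpina1d (lower) and Serpina1b (higher) count as separate members, though values of single copies are uncertain. Ttr (gene 22139, chr18:20664209-20674326), a blood transporter of thyroid hormone, stood at 48.03, 52.6 and 44.6 FPKM in C57BL/6 and 1.13, 0.8 and 0.84 in MRL/lpr (log2 difference -4.68 ± 0.09, adjusted p = 1.18e-07), mostly from 1 predicted mRNA. Apoa2, a protein of high-density lipoprotein, stood at 13.1, 12.2 and 12.5 FPKM in C57BL/6 and 0.62, 0.36 and 0.47 in MRL/lpr (log2 difference -3.20 ± 0.085, adjusted p = 8.41e-07). Serpina1d is another lower member, and Serpina6 is among the 3 higher. The summed FPKM of the list was 208, 213 and 219 in C57BL/6 and 83.9, 72.9 and 118 in MRL/lpr, and the liver gene Ahsg was listed at 0 in all 6 libraries.

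Metabolic genes of the tubule were called in both directions, beside 9.68% higher and 10.7% lower among all tested genes. Amino acid metabolism held 16 higher and 5 lower of 46 (median 0.13). Acy1, an aminoacylase that frees amino acids, stood at 135, 142 and 179.6 FPKM in C57BL/6 and 333, 287 and 365 in MRL/lpr (log2 difference 1.11 ± 0.13, adjusted p = 0.00153). Cbs, which makes cystathionine from homocysteine, stood at 54.5, 49.4 and 50.1 FPKM in C57BL/6 and 95.6, 105 and 96.3 in MRL/lpr (log2 difference 0.93 ± 0.061, adjusted p = 6.17e-05), with little spread in either strain. Sardh, which demethylates sarcosine, was lower (-0.84 ± 0.05, adjusted p = 3.68e-05), with -0.26, adjusted p = 0.302 over curated mRNAs alone. Cytochrome P450 genes held 5 higher and 8 lower of 30, and glutathione and xenobiotic genes 3 and 7 of 31. Gstm2, a mu-class transferase, was higher at 57.6, 73.7 and 68.96 FPKM in C57BL/6 and 141, 136 and 129 in MRL/lpr (log2 difference 1.02 ± 0.092, adjusted p = 0.000316), opposite to Gsta2 and Gsta4. Cyp2a5, a coumarin hydroxylase, stood at 41.1, 22.3 and 23.2 FPKM in C57BL/6 and 120.2, 249 and 112 in MRL/lpr (log2 difference 2.39 ± 0.37, adjusted p = 0.00718), a call lost without C57BL/6 replicate 3 (adjusted p = 0.0515).

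Cholesterol synthesis held 8 lower and 3 higher of 25 (median -0.14), beside 10.7% lower and 9.68% higher among all tested genes. Sqle, squalene epoxidase, stood at 28.8, 23.6 and 29.5 FPKM in C57BL/6 and 10.2, 9.53 and 14.3 in MRL/lpr (log2 difference -1.21 ± 0.16, adjusted p = 0.00283), and Sc5d, a late desaturase of the pathway, at 14.3, 13.6 and 13.4 FPKM in C57BL/6 and 6.23, 5.57 and 5.34 in MRL/lpr (log2 difference -1.14 ± 0.068, adjusted p = 3.70e-05). Fatty acid oxidation and PPAR alpha target genes held 3 higher and 2 lower of 32, or 6 and 2 without MRL/lpr replicate 3. Pdk4, a kinase that spares glucose by stopping pyruvate dehydrogenase, was lower at 19.1, 22.5 and 28.2 FPKM in C57BL/6 and 8.3, 5.71 and 6.87 in MRL/lpr (log2 difference -1.60 ± 0.17, adjusted p = 0.00111). Eci1, an isomerase of beta oxidation, was higher (0.53 ± 0.096, adjusted p = 0.00821). Fth1, the ferritin heavy chain that stores iron, stood at 3384, 3096 and 2973 FPKM in C57BL/6 and 2007, 2043 and 2115 in MRL/lpr (log2 difference -0.61 ± 0.064, adjusted p = 0.000650). Nuclear genes of oxidative phosphorylation held 6 lower and 0 higher of 43 (median -0.091), again beside 10.7% lower among all tested genes. Cox5a, a subunit of cytochrome oxidase, was lower (-0.28 ± 0.05, adjusted p = 0.00686).

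Of 24 endoplasmic reticulum stress genes 8 were higher and 0 lower (median 0.26), beside 9.68% and 10.7% of all tested genes. Without MRL/lpr replicate 3, 5 were higher. Pdia6, a disulfide isomerase, stood at 78.2, 78.7 and 85.1 FPKM in C57BL/6 and 106, 104 and 116 in MRL/lpr (log2 difference 0.42 ± 0.062, adjusted p = 0.00303). Hyou1 and Manf, a chaperone and a secreted stress protein, differed by 0.51 ± 0.11 and 0.49 ± 0.10 (adjusted p = 0.0150 and 0.0145), calls lost without C57BL/6 replicate 1 or 2 (up to 0.0615 and 0.0593). Cell cycle genes held 6 higher and 1 lower of 21, the lower one being Pttg1. Stmn1, which takes microtubules apart, stood at 34.7, 33.7 and 28.4 FPKM in C57BL/6 and 80.6, 78.9 and 69.5 in MRL/lpr (log2 difference 1.22 ± 0.09, adjusted p = 0.000113), and Tk1, thymidine kinase, at 6.17, 5.32 and 4.51 FPKM in C57BL/6 and 14.5, 11.8 and 9.7 in MRL/lpr (log2 difference 1.03 ± 0.15, adjusted p = 0.00410). Ccnd1, cyclin D1, was higher (0.69 ± 0.12, adjusted p = 0.00785).

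Of 26 TGF beta and BMP genes 3 were higher and 4 lower, or 4 and 7 without MRL/lpr replicate 3, beside 20.4% of all tested genes called in either direction. Tgfb2, a TGF beta ligand, stood at 2.13, 1.28 and 2.29 FPKM in C57BL/6 and 0.5, 0.64 and 0.45 in MRL/lpr (log2 difference -0.91 ± 0.15, adjusted p = 0.00545), and Id2, a transcriptional inhibitor that BMP induces, was higher (0.61 ± 0.09, adjusted p = 0.00317). Igf2, a fetal growth factor, stood at 2.37, 10.03 and 6.09 FPKM in C57BL/6 and 0.98, 0.84 and 0.56 in MRL/lpr (log2 difference -1.85 ± 0.41, adjusted p = 0.0274), a call lost without C57BL/6 replicate 3 or any 1 of the MRL/lpr libraries (up to 0.104). Of 16 heat shock genes 1 was called, Hspb8, a small chaperone, higher by 0.98 ± 0.10 (adjusted p = 0.000710). Of 20 clock genes 2 were higher (6 without MRL/lpr replicate 3), Hlf and Rora, both lost when 1 of several libraries was left out: for Hlf any but MRL/lpr replicate 3, and for Rora C57BL/6 replicate 1 or 3 or MRL/lpr replicate 1 or 2 (up to 0.0836 and 0.0651). Called genes lay on each of chromosomes 1 to 19 and on X, from 14.9% of those tested on X to 24.6% on chromosome 19.

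At 17 weeks, in separate libraries, 2320 of the 2517 genes (92.2%) differed with the same sign as at 8 weeks, against 69.4% of all tested genes. Of the 2517, 1128 were also called at 17 weeks in the same direction, which is 44.8% of the calls at 8 weeks and 57.7% of those at 17 weeks (15.1% of 12931 tested, 993 or 7.68% higher and 962 or 7.44% lower). Angptl7 and Capg stayed apart, with log2 differences at 17 weeks of 6.31 ± 0.19, adjusted p = 1.19e-08 and -3.47 ± 0.18, adjusted p = 5.36e-07. Ren1 stood at 109, 72.8 and 89.8 FPKM in C57BL/6 and 145, 187 and 160.3 in MRL/lpr at 17 weeks (0.86 ± 0.15, adjusted p = 0.00308). Agt, at 73.8, 69.5 and 74.7 FPKM in C57BL/6 and 107, 74.4 and 73.3 in MRL/lpr, was not called then (0.20 ± 0.13, adjusted p = 0.334), and neither was Ccl2 (0.16 ± 0.77, adjusted p = 0.919), at 1.05, 25.99 and 1.64 FPKM in C57BL/6 and 7.48, 4.99 and 2.97 in MRL/lpr. The Ccl2 value of 26 FPKM came from C57BL/6 17 weeks replicate 2. Whether the strain difference itself changed with age was tested as an interaction, and for Ren1, Agt and Ccl2 it was not called (adjusted p = 0.474, 0.459 and 0.707). Over all genes the interaction was called for 7 of 12931 (0.0541%), for 311 (2.41%) without C57BL/6 17 weeks replicate 2, and for 1 to 13 without any other library.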

How the data were processed

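Kidney RNA of C57BL/6 and MRL/lpr mice was measured at 8 and 17 weeks, 3 libraries each, from TRIzol total RNA made into mRNA libraries with a BGI kit, per the labels' protocols. The deposited values are FPKM per mRNA, which the authors made; the unit was read from the values. The submitters' processing notes name Bowtie2, RSEM 1.3.1, DESeq2 1.34.0 and the build GRCm38.p6. The table has 72806 mRNAs (31263 curated, 41543 predicted) of 19034 genes, of which 18886 had a symbol. All 12 columns were matched to samples by strain, age and replicate number; the prefixes C and LN were read as C57BL/6 and MRL/lpr.

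FPKM were summed per gene, filtered (1 FPKM in 3 of 6 libraries) and tested as log2(FPKM + 1) with limma 3.58.1 (trend and robust moderation, R 4.3.3), Benjamini-Hochberg adjustment and a threshold of 0.05. The script was tested on simulated data. The 17-week difference and the interaction came from a fit to 12 libraries. Named genes are Fas, Nnt, the Y-linked list, the 12 largest called differences in each direction without overlap (mean of at least 1 FPKM in the higher group; predicted and ribosomal protein genes left out), and per list up to 4 called members with the largest differences and the most abundant member; others are said to be chosen after their values were seen. The comparison, its members and the lists were chosen with earlier results of these data known. Same-numbered libraries did not deviate together, so the numbers were not used as pairs. Alternatives covered the samples fitted, pseudocount, filter, scaling, block, weights, moderation, mRNAs, minimum fold and each library left out.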

Additional observations from a re-analysis of the deposited data

Results flagged for a closer look

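In 4 genes tested at 8 weeks the strain difference itself changed between the ages (interaction in limma's fit to all 12 libraries, adjusted over 12931 genes). Cyp27b1, which activates vitamin D, stood at 2.17, 1.21 and 1.13 FPKM in C57BL/6 and 2.06, 2 and 2.21 in MRL/lpr at 8 weeks and at 11.96, 9.96 and 8.49 FPKM in C57BL/6 and 1.63, 1.08 and 1.5 in MRL/lpr at 17 weeks. Its log2 strain difference at 17 weeks minus that at 8 weeks was -2.535 (adjusted p = 0.00534), with overlap at 8 weeks and none at 17. Tent4a, a poly(A) polymerase, stood at 8.71, 8.72 and 8.66 FPKM in C57BL/6 and 15.3, 16.3 and 15.7 in MRL/lpr at 8 weeks and 8.94, 8.53 and 9.01 FPKM in C57BL/6 and 10.3, 10.01 and 10.1 in MRL/lpr at 17 weeks, a change of -0.6107 (adjusted p = 0.0141). Here MRL/lpr was higher at both ages, by less at 17 weeks. Mylip, a ubiquitin ligase for the LDL receptor, went from 26.9, 23.9 and 27.3 FPKM in C57BL/6 and 15.3, 16.5 and 15.6 in MRL/lpr to 21.03, 24.9 and 24.02 FPKM in C57BL/6 and 27.03, 31.2 and 31.7 in MRL/lpr, a change of 1.035 (adjusted p = 0.0141). Hddc2, a nucleotide phosphohydrolase, went from 8.46, 8.87 and 9.32 FPKM in C57BL/6 and 6.73, 6.3 and 6.9 in MRL/lpr to 7.6, 7.61 and 6.92 FPKM in C57BL/6 and 10.2, 9.26 and 10.1 in MRL/lpr, a change of 0.7448 (adjusted p = 0.0141). In Mylip and Hddc2 all 3 MRL/lpr libraries lay below C57BL/6 at 8 weeks and above it at 17 weeks. These 4 genes were named after their values were seen. Over all genes the interaction was called for 1 or 2 genes without any 1 of the 8-week C57BL/6 libraries, and for 1 gene when the library left out was replicate 1 or 3 of C57BL/6 at 17 weeks, or replicate 2 or 3 of MRL/lpr at 8 weeks. With the replicate number as a block it was also called for 1 gene.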

How the results depend on the processing

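The 2517 calls at 8 weeks (1195 higher, 1322 lower) became 1653 with 752 higher in the fit to all 12 libraries, 1197 (578 and 619) over curated mRNAs alone, for which fewer mRNAs were summed, and 246 (134 and 112) against a minimum fold of 1.5. Leaving out 1 library in turn gave 1522 to 2360 calls, 740 to 1099 higher and 775 to 1261 lower. At 17 weeks the same gave 1279 to 3521 calls, 663 to 2281 higher and 605 to 1240 lower, the highest of each without C57BL/6 17 weeks replicate 2. The interaction gave 4 calls with a pseudocount of 0.1 and 1 to 311 with 1 library left out. For these changes the cause was not tested. The other pseudocounts, filters, scalings, weights and moderation kept the 8-week counts within 1.5 times.

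With the replicate number as a block, 948 genes were higher and 1023 lower at 8 weeks, and the interaction gave 1 call. Same-numbered libraries correlated at -0.108, -0.029 and 0.082 in their deviations, and differently numbered ones at -0.244 to 0.234. With 3 libraries per strain, such values cannot exclude a shared batch. Of the 122 genes tested and named here, 7 lost their call under the block, 25 in the fit to all 12 libraries, 15 over curated mRNAs alone and 65 against the minimum fold. Leaving out C57BL/6 replicate 1, 2 or 3 ended 17, 18 and 21 calls, and leaving out MRL/lpr replicate 1, 2 or 3 ended 12, 11 and 5. Each of the other settings ended at most 5. Differences not called with all libraries changed sign for H2-D1 (-0.7653 without MRL/lpr replicate 3, up to 0.2997 otherwise), H2-DMb1 (-0.1118 without MRL/lpr replicate 3, up to 0.8421 otherwise) and the sum of Eno1 and Eno1b (-0.0106 to 0.0879). The lower sum of Trim34a and Trim34b became 0.6391 over curated mRNAs alone (adjusted p = 0.295). The medians of all genes moved by less than 0.1 under every scaling. Depth is unknown, which limits what can be said of genes near 1 FPKM.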
